A study of Mus musculus with 6 samples.

Results

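The genes of cholesterol and fatty acid synthesis were followed through the stimulation of mouse CD8+ T cells, without magnets and in a static magnetic field. They were 33 genes chosen by name, of 54446 genes in the files. All 33 were found, 18 in the sterol branch, 10 in the fatty acid branch and 5 that regulate the pathways or carry sterol out of the cell. Of these, 32 averaged 1 FPKM or more in the 6 libraries and entered the tests, beside 14991 genes in all. *Abca1* was below this limit and its values are given without a test. FPKM is the number of fragments per length of transcript, scaled to the size of the library, so levels can be compared between genes of different length.

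RNA-Seq was performed on CD8+ T cells from the spleens of wild-type C57BL/6 mice aged 8 weeks, with 2 libraries for each of 3 groups. Unstimulated cells were taken fresh, without culture. Control cells were stimulated with antibodies against CD3 and CD28 and kept away from magnets. SMF-treated cells received the same stimulation on magnets that gave a static magnetic field of 0.3 T. The sources used here do not tie replicates to separate mice or cultures, so the p-values measure the spread between these libraries, which may be technical.

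The dates in the file headers placed replicate 1 of the unstimulated and control cells in one month, replicate 2 of both in another, and both SMF libraries in a later year. The field and the date therefore cannot be told apart in any comparison with SMF-treated cells. The bases covered ranged from 64.4 to 259 Mb per library, and both SMF libraries lay above the other 4. Protein-coding genes took 68.7 to 69.2% of all FPKM in the SMF-treated cells and 49.1 to 50.5% in the other libraries. The 8 markers of CD8 T cells examined, such as *Cd3e* and *Cd8a*, were above 0 in every library, but some moved with the groups. *Cd8a* had 92.5 and 105 FPKM in unstimulated, 35.5 and 59.98 FPKM in control and 192 and 186 FPKM in SMF-treated cells, and was called lower in control than in unstimulated cells and higher with SMF than in control. *Cd8b1* was also called lower in control than in unstimulated cells, and *Cd3d* higher with SMF than in control. The part of these shifts in the levels of the members was not tested.

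Cells make cholesterol from acetyl-CoA through mevalonate, isoprenoids and squalene, and make fatty acids from acetyl-CoA through malonyl-CoA. Both routes are driven by the SREBP transcription factors, which Scap escorts out of the endoplasmic reticulum when sterols are scarce and which Insig proteins hold back when sterols are plentiful. SREBP-2, encoded by *Srebf2*, favours the sterol genes, and SREBP-1, encoded by *Srebf1*, favours the fatty acid genes. Oxysterols activate the nuclear receptors of the LXR family, which turn on sterol efflux genes such as *Abca1*. T cells that start to divide need new membrane, and stimulation is known to raise lipid synthesis in them.

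SREBPs bind sterol regulatory elements near the start of their target genes, commonly together with NF-Y, which binds the CCAAT box. Promoters of 27 of the 33 members were found in RefSeq for GRCm38.p6, each with 250 bases before and 50 after the start. The letters TCACNCCAC, one form of the sterol regulatory element, were searched on both strands and found in *Hmgcs1* alone among the 27, and in 1.24% of all 32851 promoters. The letters CCAAT, searched in the same way, were found in 21 of 27, and in 37.4% of all promoters and 42.1% of protein-coding genes. The promoters of 3 sterol genes whose RNA was higher after stimulation and of *Abca1*, which was at or near 0 after it, are given here for the 250 bases before the start, 5′ to 3′, with both motifs in capitals, where ATTGG is CCAAT on the other strand. The motifs were marked separately and may share letters.
Hmgcs1, chr13:119690101-119690350, plus strand: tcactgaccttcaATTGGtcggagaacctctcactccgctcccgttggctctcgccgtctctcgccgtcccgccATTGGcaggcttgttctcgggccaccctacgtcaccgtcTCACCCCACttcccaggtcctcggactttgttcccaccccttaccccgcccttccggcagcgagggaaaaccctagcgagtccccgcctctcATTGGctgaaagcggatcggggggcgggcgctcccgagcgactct
Idi1, chr13:8885356-8885605, plus strand: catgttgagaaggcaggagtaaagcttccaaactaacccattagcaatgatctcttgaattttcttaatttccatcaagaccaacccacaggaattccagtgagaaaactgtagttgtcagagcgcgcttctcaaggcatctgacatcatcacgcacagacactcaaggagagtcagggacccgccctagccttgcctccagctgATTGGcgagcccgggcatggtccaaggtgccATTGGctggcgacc
Msmo1, chr8:64733579-64733828, minus strand: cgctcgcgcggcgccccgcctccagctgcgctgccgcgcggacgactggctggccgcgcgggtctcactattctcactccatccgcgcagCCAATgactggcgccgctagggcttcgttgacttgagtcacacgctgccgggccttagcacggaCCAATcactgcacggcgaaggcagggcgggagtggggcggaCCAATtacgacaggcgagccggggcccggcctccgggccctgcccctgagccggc
Abca1, chr4:53159896-53160145, minus strand: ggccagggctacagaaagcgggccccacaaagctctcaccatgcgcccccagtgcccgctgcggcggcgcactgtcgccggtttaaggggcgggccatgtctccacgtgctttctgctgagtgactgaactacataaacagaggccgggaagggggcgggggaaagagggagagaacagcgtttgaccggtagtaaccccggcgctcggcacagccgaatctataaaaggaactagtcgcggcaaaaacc
The windows hold 1 match to the sterol regulatory element and CCAAT boxes in *Hmgcs1*, 2 CCAAT boxes in *Idi1*, 3 in *Msmo1*, and neither motif in *Abca1*. A match is a description of the letters and not a bound site. Among the members tested, CCAAT was present for 10 of the 14 called higher in control than in unstimulated cells that had a promoter in the table, and for 11 of the 12 that were not called.

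**Figure D1:**
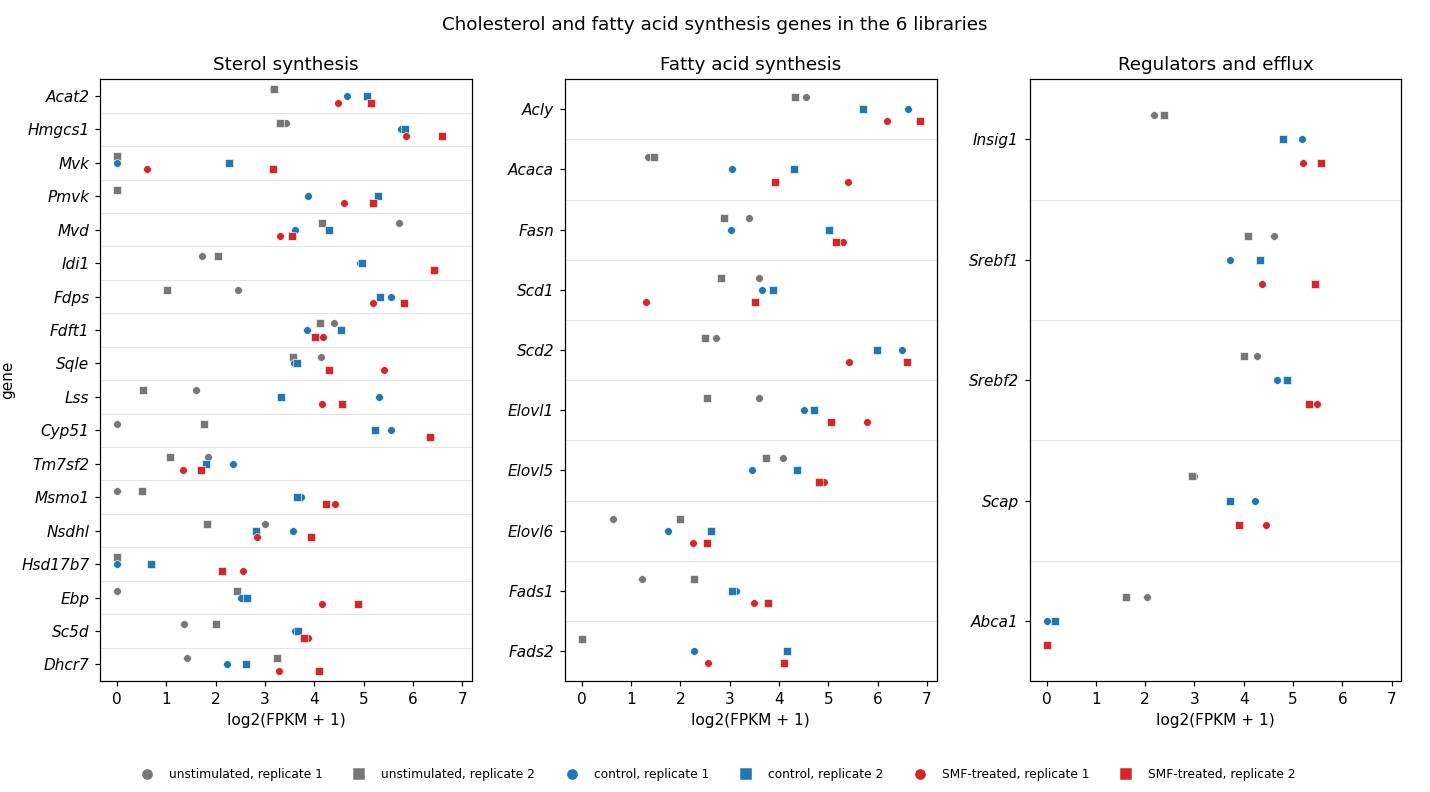
The level of each member is plotted as log2(FPKM + 1) for the 6 libraries, in 3 panels for the sterol genes, the fatty acid genes and the regulators with *Abca1*. Circles are replicate 1 and squares replicate 2, and the stimulated libraries of *Idi1*, *Fdps*, *Cyp51*, *Msmo1*, *Scd2* and *Insig1* all lie to the right of the unstimulated ones, while *Abca1* lies at or near 0 after stimulation.

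To ask which lipid synthesis genes changed with stimulation, control cells were compared with unstimulated cells. The mevalonate and sterol genes *Hmgcs1*, *Idi1*, *Fdps*, *Cyp51* and *Msmo1*, the desaturase gene *Scd2* and the feedback regulator *Insig1* rose most clearly. By limma's test on log2(FPKM + 1), with limits of 2 on the fold change and 0.05 on the unadjusted p, 17 of the 32 members were higher, against 12.3% of all genes tested. At these limits 0 members were lower, against 12.6% of all genes, and 0 of the 32 tested were lower at an unadjusted p of at most 0.05 whatever the fold. *Abca1*, which the limit of 1 FPKM left out, was lower in control cells, and in the 3 alternatives that tested all 33 members 1 member was called lower. Among the members called higher, *Pmvk*, *Fads2* and *Msmo1* reached that limit of 1 FPKM through the stimulated libraries. With the replicate number as a block in these 2 groups, which share dates by number, 14 members were called. After Benjamini-Hochberg adjustment over all 14991 genes, 9 members had an adjusted p under 0.05, against 8.48% of all genes. Both control libraries lay above both unstimulated libraries for 20 of the 32, against 24.8% of all genes.

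The median difference in log2(FPKM + 1) was 1.35 over the members and -0.05 over all genes tested. It was again 1.35 over the 28 members above 0 in both groups. By branch it was 1.53 for the sterol genes, with 9 of 18 called, 1.44 for the fatty acid genes, with 6 of 10 called, and 0.82 for the 4 regulators tested, with 2 called. Within replicate 1, 24 of the 33 members were higher in the control than in the unstimulated library of the same date, and within replicate 2, 31 were. The median of these differences was 1.23 for replicate 1 and 1.38 for replicate 2, and 0 in each over all genes tested. Summed over the 18 sterol genes, the level was 128 and 87.8 FPKM before stimulation and 335 and 341 FPKM in control cells. The fatty acid genes summed to 79.1 and 62.0 FPKM and to 258 and 252 FPKM in the same order.

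**Figure D2:**
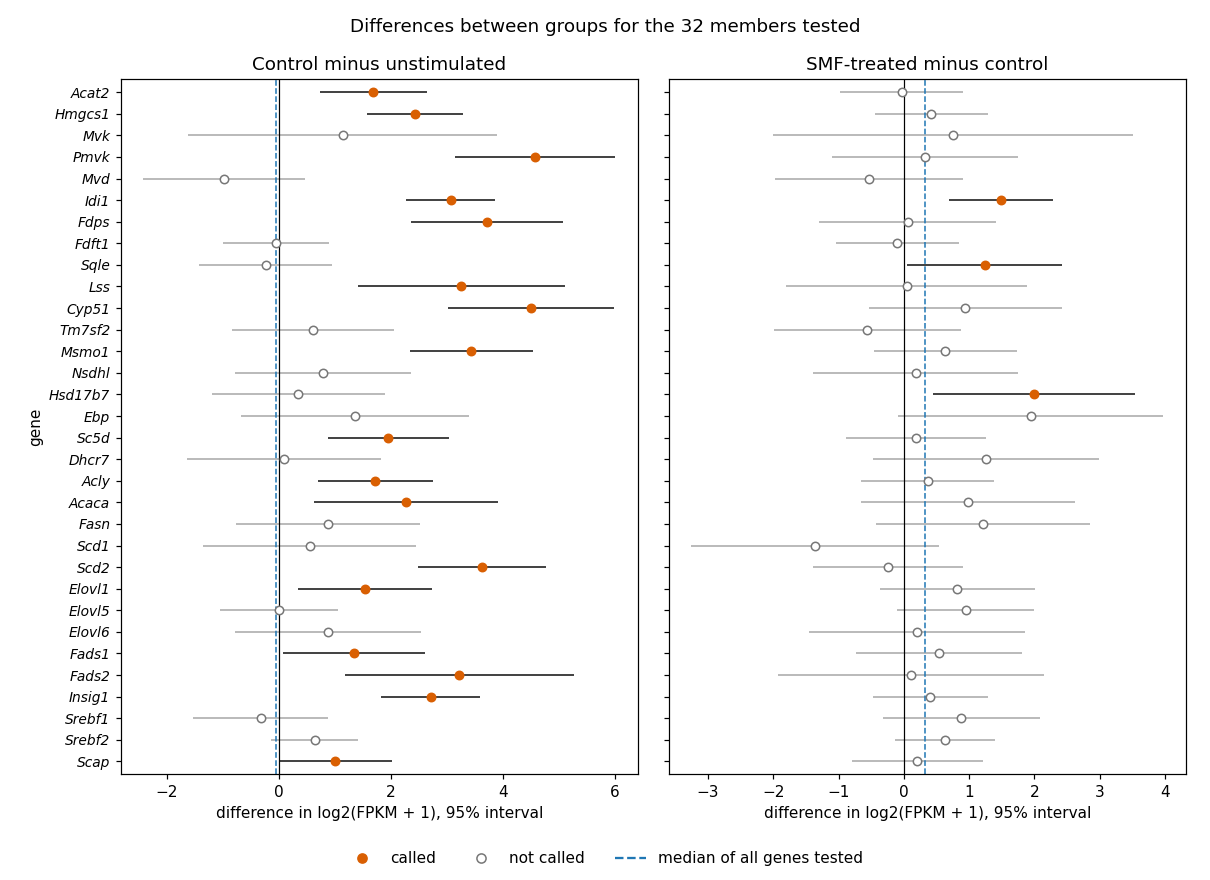
Differences between groups in log2(FPKM + 1) are plotted for the 32 members tested, with bars for the 95% interval of limma's fit, filled points for calls and a dashed line at the median of all genes tested. For control minus unstimulated 17 points are filled and all lie above 0, and for SMF-treated minus control the 3 filled points are *Idi1*, *Sqle* and *Hsd17b7*.

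The early steps of the sterol route lead from acetyl-CoA to farnesyl diphosphate. *Acat2*, which joins acetyl-CoA units into acetoacetyl-CoA, had 7.90 and 8.10 FPKM in replicates 1 and 2 of the unstimulated cells and 24.3 and 32.4 FPKM in those of the control cells. The control libraries were both higher, and the log2 difference was 1.69 (SE 0.38, adjusted p = 0.0501 from limma). *Hmgcs1*, which makes HMG-CoA, had 9.77 and 8.82 FPKM in unstimulated and 53.1 and 56.1 FPKM in control cells. Its libraries were close within each group and far apart between them, with a log2 difference of 2.43 (SE 0.35, adjusted p = 0.0167 from limma). *Idi1*, which isomerizes isopentenyl diphosphate, had 2.29 and 3.14 FPKM in unstimulated and 29.6 and 30.4 FPKM in control cells. This was the smallest adjusted p among the members (log2 difference 3.07, SE 0.32, adjusted p = 0.00959 from limma). *Fdps*, which builds farnesyl diphosphate, had 4.45 and 1.01 FPKM against 46.0 and 39.4 FPKM. The unstimulated libraries differed from each other more than the control libraries did, and the log2 difference was 3.72 (SE 0.55, adjusted p = 0.0184 from limma).

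The steps from mevalonate to isopentenyl diphosphate are carried by a pair of kinases and a decarboxylase. *Pmvk*, the phosphomevalonate kinase, was listed at 0 in both unstimulated libraries and had 13.6 and 38.2 FPKM in control cells. It was called (adjusted p = 0.0134 from limma), and no fold is given against a group at 0. It reached the limit of 1 FPKM through the stimulated libraries, as did *Fads2*, *Mvk* and *Msmo1*, the last with a mean of 0.21 FPKM in unstimulated cells. *Mvk*, the mevalonate kinase, was listed at 0 in both unstimulated libraries and in 1 control library, while control replicate 2 held 3.84 FPKM. All of this *Mvk* value was in a transcript with a retained intron. *Mvd*, which makes isopentenyl diphosphate, had 51.6 and 16.9 FPKM in unstimulated and 11.3 and 18.7 FPKM in control cells, and the groups overlapped. Nearly all of its FPKM was assigned to a transcript annotated as a target of nonsense-mediated decay, and its protein-coding transcripts were above 0 in control replicate 2 alone, at 41.9% of the gene's FPKM. The value of *Mvd* is therefore mostly that of this transcript.

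Among the genes that act after squalene, *Cyp51*, *Msmo1*, *Sc5d* and *Lss* were called higher. *Cyp51*, the lanosterol 14-alpha-demethylase, was listed at 0 in unstimulated replicate 1 and had 2.42 FPKM in replicate 2, against 46.3 and 36.5 FPKM in control cells. The groups were far apart (log2 difference 4.51, SE 0.60, adjusted p = 0.0146 from limma). *Msmo1*, which removes the methyl groups at carbon 4, had 0 and 0.42 FPKM in unstimulated and 12.3 and 11.6 FPKM in control cells. The control replicates nearly coincided in this sum over transcripts, and the log2 difference was 3.44 (SE 0.44, adjusted p = 0.0136 from limma). Protein-coding transcripts of *Msmo1* took 28.8% of it in control replicate 1 and 96% in replicate 2, at 3.54 and 11.1 FPKM. The rest was in transcripts with retained introns. Over protein-coding transcripts alone *Msmo1* was still called (log2 difference 2.89, unadjusted p = 0.00446 from limma). *Sc5d*, a sterol desaturase, had 1.55 and 3.01 FPKM against 11.1 and 11.7 FPKM (log2 difference 1.96, SE 0.44, adjusted p = 0.047 from limma). *Lss*, which closes the sterol ring, had 2.02 and 0.44 FPKM in unstimulated and 38.9 and 9.08 FPKM in control cells. It was called (log2 difference 3.26, SE 0.75, adjusted p = 0.0516 from limma), but the control replicates were far apart, and its protein-coding transcripts took no more than 28.4% of its FPKM in any library, the rest lying in transcripts with retained introns. Without unstimulated replicate 2 its log2 difference was 2.73 and not called (unadjusted p = 0.0738 from limma).

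The other sterol genes did not pass the test. *Fdft1*, the squalene synthase, had 20.1 and 16.3 FPKM in unstimulated and 13.5 and 22.2 FPKM in control cells, and *Sqle*, the squalene epoxidase, had 16.6 and 10.8 FPKM against 11.04 and 11.5 FPKM. With all transcripts summed, both genes overlapped between the groups, with log2 differences of -0.06 and -0.23. Protein-coding transcripts of *Sqle* had 12.5 and 6.66 FPKM in unstimulated and 3.66 and 4.955 FPKM in control cells, lower without overlap. They took 33.2 and 43% of its FPKM in control cells, the rest lying in transcripts with retained introns. *Nsdhl*, *Ebp*, *Tm7sf2*, *Dhcr7* and *Hsd17b7*, which act on the sterol ring and its side groups after lanosterol, had log2 differences from 0.10 for *Dhcr7* to 1.37 for *Ebp*. *Hsd17b7* was listed at 0 in all libraries of both groups but control replicate 2, which had 0.62 FPKM. The sterol branch thus held 9 genes that rose and 9 that did not pass the test.

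In the fatty acid branch, *Acly*, the ATP citrate lyase that supplies cytosolic acetyl-CoA, had 22.4 and 18.98 FPKM in unstimulated and 97.0 and 51.0 FPKM in control cells. With all transcripts summed, both control libraries were higher, and the log2 difference was 1.72 (SE 0.41, adjusted p = 0.057 from limma). Protein-coding transcripts took 27.8% of the FPKM of *Acly* in control replicate 1 and 84.3% in replicate 2. They had 14.9 and 16.65 FPKM in unstimulated and 27.0 and 43.0 FPKM in control cells, with a log2 difference of 1.07 (unadjusted p = 0.0167 from limma). *Acaca*, the acetyl-CoA carboxylase that commits it to fatty acids, had 1.54 and 1.76 FPKM against 7.31 and 18.7 FPKM (log2 difference 2.27, SE 0.67, adjusted p = 0.0912 from limma). *Fasn*, the fatty acid synthase itself, had 9.50 and 6.42 FPKM against 7.13 and 31.3 FPKM. Its groups overlapped because control replicate 1 lay within the unstimulated range, and it was not called (log2 difference 0.88, SE 0.67). The protein-coding transcripts of *Fasn* alone had 3.13 and 3.88 FPKM in unstimulated and 7.13 and 10.6 FPKM in control cells, without overlap. The rest of its FPKM lay in transcripts with retained introns. The calls of *Acly* and *Acaca* were lost in some fits that left out 1 library. *Acly* was not called without unstimulated replicate 2, at a log2 difference of 1.61. *Acaca* was not called without unstimulated replicate 1 (2.21), unstimulated replicate 2 (2.33) or control replicate 2 (1.65). Such a fit leaves 1 library in a group, so a lost call does not show that the library left out carried the difference.

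*Scd1* and *Scd2* both encode stearoyl-CoA desaturases, which place the first double bond in saturated chains. *Scd2* had 5.61 and 4.68 FPKM in unstimulated and 89.5 and 62.8 FPKM in control cells, the highest control levels in the branch together with *Acly*. Its log2 difference was 3.63 (SE 0.47, adjusted p = 0.0136 from limma). *Scd1* had 11.1 and 6.12 FPKM against 11.6 and 13.8 FPKM and was not called (log2 difference 0.55, SE 0.78). Before stimulation *Scd1* was thus the higher of the pair in both libraries, and in control cells *Scd2* was. Among the genes that desaturate further, *Fads2* was listed at 0 in both unstimulated libraries and had 3.87 and 16.9 FPKM in control cells (adjusted p = 0.0674 from limma). Without unstimulated replicate 1, unstimulated replicate 2 or control replicate 2 it was not called, with unadjusted p-values of 0.0815, 0.0814 and 0.0572 from limma. *Fads1* had 1.33 and 3.87 FPKM against 7.76 and 7.31 FPKM (log2 difference 1.34, SE 0.52, adjusted p = 0.163 from limma), and this call was lost in 10 of 19 alternative settings, among them the replicate block (unadjusted p = 0.133 from limma) and every fit but 1 that left out a library. The lowest value among the latter was 0.81, without unstimulated replicate 1.

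The elongases lengthen chains beyond those made by *Fasn*. *Elovl1* had 11.1 and 4.79 FPKM in unstimulated and 21.6 and 25.1 FPKM in control cells and was called (log2 difference 1.54, SE 0.48, adjusted p = 0.106 from limma). It was not called without unstimulated replicate 2 (1.01), control replicate 1 (1.64) or control replicate 2 (1.44), nor with the replicate block in these 2 groups (unadjusted p = 0.0505 from limma). An exon of *Elovl1* faces an exon of the cell cycle gene *Cdc20* on the other strand, which had 0 and 1.57 FPKM in unstimulated and 27.4 and 28.2 FPKM in control cells. *Elovl6* had 0.54 and 3.001 FPKM against 2.38 and 5.17 FPKM, and *Elovl5* had 16.0 and 12.4 FPKM against 9.95 and 19.7 FPKM. Both overlapped between the groups and were not called.

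Of the regulators, *Insig1*, which retains the SREBP precursor and is itself a target of SREBP, had 3.503 and 4.20 FPKM in unstimulated and 35.3 and 26.7 FPKM in control cells. It rose with a log2 difference of 2.71 (SE 0.36, adjusted p = 0.0141 from limma). The genes that encode the SREBPs were not called with all transcripts summed. *Srebf2* had 18.4 and 15.0 FPKM against 24.4 and 28.6 FPKM. Its groups did not overlap, but the log2 difference of 0.64 (SE 0.31) did not pass the test. The protein-coding transcripts of *Srebf2* had 6.64 and 6.30 FPKM in unstimulated and 12.6 and 22.7 FPKM in control cells. They took 36.1 and 41.9% of its FPKM before stimulation and 51.8 and 79.3% in control cells, the rest lying in transcripts with retained introns. *Srebf1* had 23.5 and 16.1 FPKM against 12.3 and 19.1 FPKM, with overlap (log2 difference -0.33, SE 0.49). *Scap* had 6.97 and 6.70 FPKM against 17.7 and 12.2 FPKM. Its call (log2 difference 1.01, SE 0.41, adjusted p = 0.181 from limma) was lost in 14 of 19 alternative settings, with 0.75 without control replicate 1 and an unadjusted p of 0.102 from limma with the replicate block in these 2 groups.

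*Abca1*, the exporter that loads cholesterol onto lipoproteins, had 3.08 and 2.08 FPKM in unstimulated cells, 0 and 0.13 FPKM in control cells and 0 in both SMF libraries. The unstimulated libraries lay above all 4 stimulated libraries, in the opposite direction to the synthesis genes. Of the 12 genes of sterol transport and SREBP control examined beside the members, 3 were called lower in control cells and 1 higher. Over all genes tested, 12.6% were called lower and 12.3% higher. *Abcg1*, a second sterol exporter, fell from 8.76 and 6.01 FPKM to 1.37 and 2.45 FPKM (log2 difference -1.53, SE 0.56, adjusted p = 0.147 from limma). *Mylip*, an LXR target that marks lipoprotein receptors for degradation, fell from 7.38 and 7.80 FPKM to 0 and 0.677 FPKM (log2 difference -2.73, SE 0.60, adjusted p = 0.0453 from limma). *Nr1h3*, which encodes LXR-alpha, fell from 3.74 and 4.16 FPKM to 0.463 and 0 FPKM (log2 difference -2.03, SE 0.61, adjusted p = 0.0952 from limma). The gene called higher was *Stard4*, a cytosolic sterol carrier and SREBP-2 target, with 4.48 and 1.72 FPKM against 12.6 and 12.2 FPKM (log2 difference 1.79, SE 0.48, adjusted p = 0.074 from limma).

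Myeloid and B cell markers moved in the same direction as the efflux genes. Of the 6 myeloid markers tested, 4 were called lower in control than in unstimulated cells. So were the 3 B cell markers reported, against 12.6% of all genes. Of the 3 CD4 T cell markers, such as *Foxp3*, 0 were called there. They summed to 25.0 and 12.1 FPKM in unstimulated and 12.8 and 22.8 FPKM in control cells. The 7 myeloid markers summed to 140 and 161 FPKM in unstimulated, 47.0 and 53.8 FPKM in control and 47.5 and 51.4 FPKM in SMF-treated cells. *Lyz2* and *Adgre1*, both defining genes of macrophages, had 42.4 and 74.0 FPKM and 14.6 and 4.17 FPKM in unstimulated cells and were listed at 0 in all 4 stimulated libraries, whereas *Csf1r* was between 41.1 and 68.5 FPKM in all 6. In control cells the other 6 myeloid markers were listed at 0. *Cd68* had 9.49 and 10.2 FPKM in unstimulated, 0 in both control libraries and 6.415 and 0.892 FPKM in SMF-treated cells. The 3 B cell markers reported, *Cd79a*, *Cd79b* and *Ms4a1*, summed to 104 and 82.96 FPKM, 23.3 and 7.63 FPKM, and 4.50 and 2.43 FPKM in the same order. The part of these cells in the levels of *Abca1*, *Abcg1*, *Mylip* and *Nr1h3* was not tested. In bulk RNA, fewer cells of a type and less RNA per cell cannot be told apart.

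**Figure D3:**
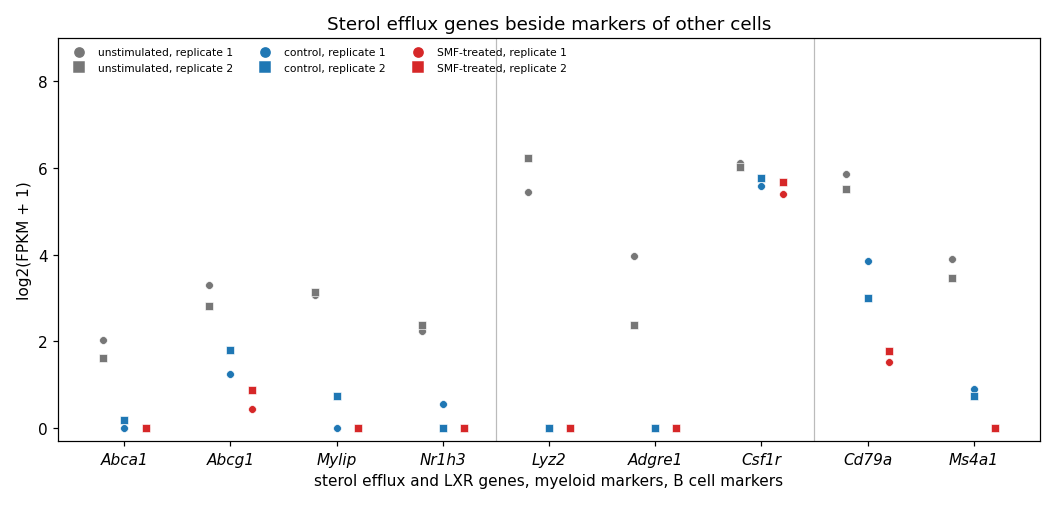
Levels of *Abca1* and 3 genes of sterol efflux or LXR control are plotted as log2(FPKM + 1) beside myeloid markers (*Lyz2*, *Adgre1*, *Csf1r*) and B cell markers (*Cd79a*, *Ms4a1*), with circles for replicate 1 and squares for replicate 2 of each group. The unstimulated libraries are the highest for every gene shown, and *Csf1r* is the one gene whose stimulated libraries stay near the unstimulated level.

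Some members share their position with a gene on the other strand. An exon of 9 of the 33 members faces such an exon, and the values of those members depend on the strand given to each read. *Hmgcs1*, on chromosome 13 of GRCm38 from 119690379 to 119708260, faces the noncoding gene *Gm48342*, which had 85.8 and 75.8 FPKM in unstimulated, 837 and 785 FPKM in control and 317 and 391 FPKM in SMF-treated cells. The noncoding gene was above *Hmgcs1* in all 6 libraries and moved with it on stimulation. With both genes summed, the log2 difference of control from unstimulated cells was 3.25, against 2.43 for *Hmgcs1* by itself. *Idi1* faces *Gm48574*, which had 0.852 and 2.54 FPKM in unstimulated, 48.8 and 40.3 FPKM in control and 29.5 and 30.8 FPKM in SMF-treated cells. With both summed, the log2 difference of control from unstimulated cells was 3.84, so the rise of both members was called with or without the facing gene. *Lss* and *Scap* also face noncoding genes, *4930483K19Rik* and *5830462I19Rik*. With these added, *Lss* was still called higher in control than in unstimulated cells (log2 difference 1.87, SE 0.42, adjusted p = 0.0495 from limma), and *Scap* was not (0.34, SE 0.30). All antisense genes together took 19.5 to 24.7% of all FPKM in unstimulated and control cells and 12.3 to 12.8% in SMF-treated cells.

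**Figure D4:**
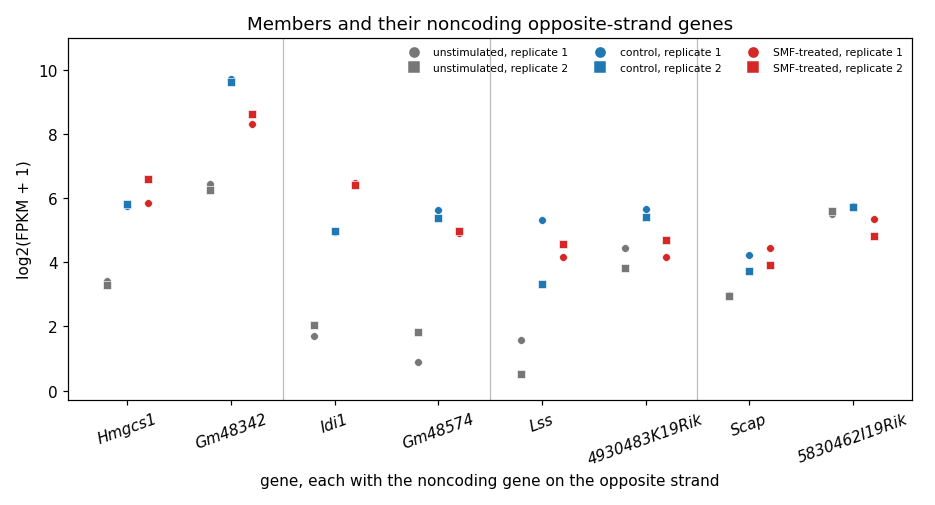
Levels of *Hmgcs1*, *Idi1*, *Lss* and *Scap* are plotted as log2(FPKM + 1), each beside the noncoding gene that faces it on the other strand, with circles for replicate 1 and squares for replicate 2. The SMF libraries lie above the control libraries for *Idi1* and below them for the gene that faces it, *Gm48574*.

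To ask how the field altered these genes under stimulation, SMF-treated cells were compared with control cells. *Idi1*, *Sqle* and *Hsd17b7* were called higher, 3 of 32 members against 12.5% of all genes, and 0 members were called lower, against 5.72%. *Hsd17b7* reached the limit of 1 FPKM through the SMF libraries in which it was high, and with a limit of 5 FPKM it was not tested and 2 members were called. After adjustment over all genes by limma 0 members passed 0.05, against 0.0267% of all genes, and at an unadjusted p of at most 0.05 whatever the fold 3 did. The libraries did not overlap, with SMF-treated cells higher, for 16 members, against 37.4% of all genes, and with SMF-treated cells lower for 3, against 17.4%. The median difference in log2(FPKM + 1) was 0.41 over the members and 0.32 over all genes tested. With every library shifted to one median, it was 0.07 over the members and -0.02 over all genes, and the split of all calls went from 1868 higher and 857 lower to 877 higher and 1441 lower. Over protein-coding transcripts alone the order turned, with medians of 0.44 over the members and 0.62 over all genes, and likewise without SMF replicate 2, with 0.23 and 0.32.

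*Idi1*, on chromosome 13 from 8885501 to 8892451, had 29.6 and 30.4 FPKM in control and 87.0 and 84.7 FPKM in SMF-treated cells. Replicates nearly coincided in both groups, and the log2 difference was 1.49 (SE 0.32, unadjusted p = 0.00334 and adjusted p = 0.14 from limma). With every library at one median it was 1.14. With the FPKM of *Gm48574* added it was 0.63 and no longer called (SE 0.34, unadjusted p = 0.11 from limma), since the facing gene was lower in SMF-treated cells. *Hmgcs1* had 53.1 and 56.1 FPKM against 56.7 and 95.03 FPKM and was not called (log2 difference 0.42, SE 0.35). Summed with *Gm48342*, the log2 difference turned to -1.02 and passed the fold and p limits (SE 0.22, unadjusted p = 0.00358 and adjusted p = 0.139 from limma). The direction of *Hmgcs1* between SMF-treated and control cells thus depended on whether the FPKM of the facing gene was added. Each FPKM is scaled to its own transcripts, so this sum is not a count of reads on both strands. The strand assignment itself was not tested.

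*Hsd17b7*, which reduces the ketone at carbon 3 of sterol intermediates, was at 0 and 0.62 FPKM in control and 4.91 and 3.35 FPKM in SMF-treated cells (log2 difference 1.99, SE 0.63, adjusted p = 0.181 from limma). *Sqle* had 11.04 and 11.5 FPKM against 41.7 and 18.6 FPKM. The groups did not overlap but the SMF replicates were far apart (log2 difference 1.24, SE 0.48, adjusted p = 0.226 from limma). Without SMF replicate 1 the difference of *Sqle* was 0.68, and its call was lost in 10 of 19 alternative settings. Its protein-coding transcripts had 3.66 and 4.955 FPKM in control and 41.2 and 9.91 FPKM in SMF-treated cells. Over these alone *Sqle* was called (log2 difference 2.03, unadjusted p = 0.0281 from limma). The late sterol gene *Ebp* had 4.75 and 5.22 FPKM against 16.8 and 28.7 FPKM. With all transcripts summed, it did not overlap between the groups. It narrowly missed the test (log2 difference 1.94, SE 0.83, unadjusted p = 0.057 from limma). Protein-coding transcripts took 6.39% of the FPKM of *Ebp* in SMF replicate 2, the rest lying in transcripts with retained introns. These protein-coding transcripts had 4.753 and 3.503 FPKM in control and 14.21 and 1.838 FPKM in SMF-treated cells, so the groups overlapped. *Cyp51* had 46.3 and 36.5 FPKM against 79.6 and 80.1 FPKM, without overlap and not called (log2 difference 0.94, SE 0.60).

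The other members did not pass the test between SMF-treated and control cells. *Acat2*, *Fdps*, *Lss*, *Fdft1* and *Sc5d* had log2 differences from -0.10 for *Fdft1* to 0.19 for *Sc5d*, with 95% intervals that reached from -1.78 for the lowest to 1.87 for the highest, both of *Lss*. In the fatty acid branch 0 of 10 genes were called by limma, against 18.2% of all genes in either direction, and 0 had an unadjusted p of at most 0.05. *Fasn* had 7.13 and 31.3 FPKM against 38.5 and 34.9 FPKM (log2 difference 1.21, SE 0.67), and *Scd1* had 11.6 and 13.8 FPKM against 1.46 and 10.5 FPKM (log2 difference -1.36, SE 0.78). *Fasn* was higher and *Scd1* lower in both SMF libraries, each with 1 library far from its replicate. *Mvd* and *Tm7sf2* were also lower in both SMF libraries, without passing the test. *Insig1* had 36.0 and 46.4 FPKM in SMF-treated cells, *Srebf2* 43.9 and 39.0 FPKM, *Srebf1* 19.7 and 42.6 FPKM and *Scap* 20.96 and 14.0 FPKM. The log2 differences of these 4 regulators from control cells ran from 0.21 for *Scap* to 0.88 for *Srebf1*. None was called (0 of 4, against 18.2% of all genes in either direction). Protein-coding transcripts took 18.6% of the FPKM of *Srebf1* in SMF replicate 2. They had 12.3 and 9.58 FPKM in control and 10.4 and 7.91 FPKM in SMF-treated cells, so they were not higher with SMF.

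SMF-treated cells were also compared with unstimulated cells, which combines stimulation, field and date. Higher levels were called for 21 of 32 members, against 22.4% of all genes, and a lower level for *Mvd*, 1 of 32 against 14.8%, which makes 22 in either direction, against 37.2%. The libraries did not overlap, with SMF-treated cells higher, for 26 members, against 39.7% of all genes. After adjustment by limma 19 members had an adjusted p under 0.05, against 23.6% of all genes. The median difference in log2(FPKM + 1) was 2.09 over the members and 0.27 over all genes tested, and with every library at one median 1.84 and 0.01. With one sum of protein-coding FPKM in every library, the calls over all genes went from 3351 higher and 2226 lower to 2345 higher and 3018 lower, and the median over the members was 1.64. *Cyp51* (log2 difference 5.45, SE 0.60, adjusted p = 0.00471 from limma) and *Idi1* (4.56, SE 0.32, adjusted p = 0.00302 from limma) stood highest among the genes above 0 in both groups. *Hsd17b7*, *Srebf2*, *Fasn* and *Ebp* were called higher here and not in control against unstimulated cells, and the difference between these comparisons is that of SMF-treated from control cells given for each gene. The call of *Fasn* was lost without any 1 of the 4 libraries compared, at 1.84 to 2.34, and that of *Ebp* without SMF replicate 2, at 2.94. This comparison shares its libraries with the other 2.

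Replicates of the members were compared with each other. A gap of 2-fold or more between replicates was found for 10 of 33 members among unstimulated cells, 6 among control cells and 8 among SMF-treated cells, which is 30.3%, 18.2% and 24.2%, against 32.6%, 32.6% and 19% of all genes tested. Members listed at 0 numbered 7 and 4 in unstimulated, 3 and 0 in control and 1 and 1 in SMF-treated cells. With 2 libraries per group an exact permutation test of a single gene cannot give a p below 0.333, so the tests rest on the fit across all genes.

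Other genes of the pathways were examined as listed groups. Of 5 further genes of sterol and isoprenoid synthesis, 0 were called higher by limma and 1 lower in control than in unstimulated cells. The shares over all genes tested were 12.3% higher and 12.6% lower. *Fntb*, a farnesyltransferase subunit that uses farnesyl diphosphate, had 9.91 and 10.6 FPKM, then 2.41 and 4.49 FPKM, then 8.02 and 10.4 FPKM, and was called lower in control than in unstimulated cells (-1.38) and higher with SMF than without it (1.23). *Pdss1* was called lower (-1.06) and *Dhdds* higher (1.33) in SMF-treated than in unstimulated cells.

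Of 14 genes that supply, activate or elongate fatty acids, 11 were tested. In control cells 3 were called higher and 0 lower, against 12.3% and 12.6% of all genes. *Fabp5*, a fatty acid carrier, had 0 and 4.37 FPKM in unstimulated, 28.8 and 36.9 FPKM in control and 56.8 and 124 FPKM in SMF-treated cells. It had the largest difference of the group (log2 difference 3.86, SE 0.83, adjusted p = 0.0429 from limma). *Hsd17b12*, the reductase of the elongation cycle, had 5.49 and 11.4 FPKM, then 14.8 and 22.5 FPKM, then 51.4 and 68.6 FPKM. *Acsl4*, which activates long polyunsaturated chains, had 4.54 and 6.09 FPKM, then 10.7 and 15.6 FPKM, then 28.6 and 37.5 FPKM. Both were called higher at each step, with log2 differences of 1.11 and 1.15 on stimulation. Between SMF-treated and control cells the differences were 1.65 and 1.28. *Hsd17b12* and *Acsl4* were the 2 genes of the group called in that comparison, where 12.5% of all genes were called higher. *Acsl5* and *Slc25a1* were called higher in SMF-treated than in unstimulated cells, with log2 differences of 1.63 and 2.26.

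Of 8 genes of fatty acid breakdown, 2 were called higher and 2 lower in control than in unstimulated cells. All genes tested gave 12.3% and 12.6% in the same order. *Acadl* and *Etfdh*, which act on acyl-CoA dehydrogenation and its electrons, rose with log2 differences of 2.26 and 1.497 (adjusted p = 0.0315 and 0.0414 from limma). *Acadm* and *Hadhb* fell by 1.29 and 2.19. Between SMF-treated and control cells *Acadm*, *Hadha* and *Hadhb* were called higher, with log2 differences of 1.56, 1.27 and 4.02. Of all genes tested, 12.5% were called higher there. *Hadhb*, a subunit of the trifunctional protein, had 8.45 and 11.2 FPKM in unstimulated, 0.215 and 3.55 FPKM in control and 73.6 and 18.4 FPKM in SMF-treated cells, so the SMF replicates were far apart. *Acadvl* was called higher in SMF-treated than in unstimulated cells (1.37).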

How the data were processed

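RNA-Seq files of 6 mouse CD8+ T cell libraries were analysed, 2 each of unstimulated, control and SMF-treated cells, grouped by the sample labels. The deposited files, 1 per library, hold the abundance of 137767 annotated GRCm38 transcripts from StringTie 1.3.5, with reads treated as stranded per the file headers. The submitters' processing notes name Trimmomatic 0.36, HISAT2 and StringTie. The authors gave FPKM and TPM, which are scaled to library size and transcript length, and coverage, the mean depth per base. No read counts were given, so a 0 is reported only as a listing at 0. In a table deposited for the whole series, 3 columns of values could not be tied to a sample and were left out. The plan had been to take gene values from there, so the FPKM of each gene was instead summed over its transcripts. Depth was taken as coverage times transcript length.

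Genes that averaged 1 FPKM or more, 14991 of 54446, were fitted as log2(FPKM + 1) with limma 3.58.1 in R 4.3.3, with a variance trend, on the 3 groups together, which left 3 residual degrees of freedom. A call needed a fold of 2 or more with an unadjusted p no greater than 0.05, the thresholds used by the study. Differences are on the log2(FPKM + 1) scale, which understates the change of low genes. Adjusted p-values are Benjamini-Hochberg values over all genes tested. The fit was tested on simulated data made from the control and SMF libraries over 14991 genes, where 72.5% of 200 changed genes and 4.27% of unchanged genes were called.

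All 33 members are named. Genes of the other pathway lists were named where called in at least 1 comparison. The members and lists were chosen with earlier results of these data known. Transcript types came from GENCODE M21 and promoters from RefSeq. Facing exons were found with bedtools 2.31.1, and copies of at least 200 bases at 95% identity with minimap2, which matched 10 members, among them *Idi1*, *Fdps* and *Acat2*, whose reads may be shared with those copies. Alternatives were other pseudocounts, filters, scalings, TPM, variance models, a replicate block and leaving out each library. Counts over protein-coding transcripts alone and with facing noncoding genes added were chosen after seeing the data. Some genes of the other lists are not reported here. Replicate numbers of unstimulated and control cells share dates in the file headers and were taken to pair those libraries. Deviations of same-numbered libraries from their group means correlated across genes at 0.0963 for this pair of groups, and at 0.0301 and 0.0206 for SMF-treated with unstimulated and with control cells, which share no date.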

Additional observations from a re-analysis of the deposited data

How the results depend on the processing

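The number of members called stayed within 1.5 times its reported value under every alternative that was run. Over all genes tested the reported fit called 24.8% in control against unstimulated cells, 18.2% in SMF-treated against control cells and 37.2% in SMF-treated against unstimulated cells, in either direction. These shares also changed with the setting. In control against unstimulated cells it was 17 as reported, 13 to 15 with 1 library left out, and 14 to 18 over the other settings. In SMF-treated against control cells it was 3, with 2 to 4 both with 1 library left out and otherwise. In SMF-treated against unstimulated cells it was 22, with 18 to 21 and 20 to 23. With the replicate block over all 6 libraries 16, 4 and 22 members were called in the same order. With the block in only the 2 groups compared they were 14, 3 and 20, and in control against unstimulated cells *Elovl1*, *Fads1* and *Scap* lost their calls. The number marks a shared header date for unstimulated and control cells and for no pair with SMF-treated cells. Over protein-coding transcripts alone 18 members were called in control against unstimulated cells, all higher, against 14.1% of all genes. Of these, 16 were among the 17 reported. In SMF-treated against control cells, 2 of the 3 members called with a pseudocount of 5 were among those reported. With the facing noncoding genes added, 2 members were called higher and 1 lower there, against 12.5% and 5.72% of all genes. Of the 17 members called in control against unstimulated cells, 10 were called in all 19 settings that keep the fold limit, namely *Acat2*, *Hmgcs1*, *Pmvk*, *Idi1*, *Fdps*, *Cyp51*, *Msmo1*, *Sc5d*, *Scd2* and *Insig1*. In SMF-treated against control cells 0 of 3 calls of limma were, since *Idi1* and *Hsd17b7* each lost 1 setting and *Sqle* lost 10. With the facing noncoding gene added, *Scap* in SMF-treated against unstimulated cells turned from 1.21 to -0.0771. *Mvd* in the same comparison was -1.51, and -0.74 and not called without unstimulated replicate 1. Without the filter on low values, with gene TPM and with one protein-coding sum *Abca1* entered the tests, and 1 member was then called lower in control than in unstimulated cells. The depth limits what the listings at 0 can show, above all in unstimulated replicate 1 and control replicate 1, the shallowest libraries with 67.4 and 64.4 Mb.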
